A study of Mus musculus with 3 samples.

Results

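The hypoxia-inducible factors and the enzymes that sense oxygen for them were followed through 10 genes, taken by symbol out of the 31053 genes counted. They are the transcription factor subunits *Hif1a*, *Epas1* (coding for HIF-2α) and *Arnt* (coding for HIF-1β), the prolyl hydroxylases *Egln1*, *Egln2* and *Egln3*, the regulators *Vhl* and *Hif1an*, and the HIF-induced genes *Car9* and *Ankrd37*. All 10 were present in every library. The data came from the early phase of heterotopic ossification, the formation of cartilage and bone in soft tissue. Female CD-1 mice of 6 to 8 weeks carried subcutaneous Matrigel implants, and the masses were taken on day 5, digested with dispase and processed for droplet single-cell RNA sequencing. The Matrigel-only library came from implants without BMP2 in untreated mice. The Vehicle library came from implants with recombinant human BMP2, a protein that starts ectopic cartilage, in mice given corn oil and DMSO. The Palo library came from the same rhBMP2 implants in mice given 4 mg/kg of palovarotene daily, an agonist of the retinoic acid receptor γ. Vehicle and Palo each differ from Matrigel-only in both rhBMP2 and dosing, which cannot be told apart in those comparisons. No allele, transgene or Cre driver was named for any group.

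There was 1 library per condition, so no difference could be tested. Each level is a CPM (UMIs of the gene per 1000000 UMIs of the cells named), with an exact Poisson 95% interval, and ratios carry conditional binomial 95% intervals. These intervals cover counting error only, not the spread between mice. A gene was counted as past the fold when the ratio of CPM, with 1 CPM added to each, was at least 2. The 3 comparisons share libraries (Vehicle serves in both of its comparisons, for example), so their values stand side by side and do not support each other.

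Stromal cells were defined as cells with at least 1% of their UMIs from *Col1a1*, *Col1a2*, *Col3a1*, *Dcn* and *Lum*. Macrophages were cells under that limit with a UMI of *Csf1r* or *C1qa*. The stromal class held 2085 cells in Matrigel-only, 1373 in Vehicle and 1184 in the Palo library, with median depths of 9082, 17114 and 12955 UMIs. The macrophage class held 5812, 3253 and 5661 cells, with medians of 3090.5, 3646 and 4254 UMIs. Vehicle stromal cells were split into 594 without and 779 with a UMI of the cartilage proteoglycan *Acan*, which was seen in only 1 stromal cell of Matrigel-only and 4 of Palo. All 8 mesenchymal markers were detected in each stromal group, with a summed level between 2483 CPM (Vehicle *Acan*-positive) and 13195 CPM (Matrigel-only), and all 8 macrophage markers summed to 16447 to 21876 CPM in macrophages. Of the chondrocyte markers, *Snorc* was not among the counted gene symbols. All 7 others were detected in Vehicle *Acan*-positive cells (7576 CPM), *Acan* itself, which selects that class, being among them. The same sum was 398 CPM in Vehicle *Acan*-negative cells, 73.5 CPM in Matrigel-only stroma and 119.9 CPM in Palo stroma. Of barcodes, 51 occurred in more than 1 library.

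Under normal oxygen, the prolyl hydroxylases mark the α subunits HIF-1α and HIF-2α, and the von Hippel-Lindau protein then directs them to destruction. When oxygen falls, the α subunits persist, pair with ARNT and switch on genes for glycolysis, vessel growth, pH control and their own hydroxylases. Growth plate cartilage has few vessels and depends on HIF-1α, and inflamed macrophages also raise HIF-1α. Because HIF activity is set mainly by protein stability, RNA of the subunits does not report it directly, whereas *Egln3*, *Egln1*, *Car9* and *Ankrd37* are themselves induced by HIF.

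The core of a HIF binding site is ACGTG or GCGTG. The stretches of 30 bases below hold such cores within 250 bases before the annotated start of 5 members whose levels carry the results. They are shown on the gene's own strand, 5′ to 3′, from RefSeq promoter windows of GRCm38.p6 (mm10), with the core in capitals. A core read from the opposite strand appears as CACGT or CACGC, and overlapping cores are in 1 run of capitals. Positions count back from the RefSeq start of the transcript.
Car9 (chr4:43506995-43507024, plus strand, core at -18 to -14): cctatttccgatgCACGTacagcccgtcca
Egln3 (chr12:54204087-54204116, minus strand, core at -229 to -225): atgtgcatctcagACGTGagatccaggttt
Ankrd37 (chr8:46000071-46000100, minus strand, core at -241 to -237): cccagcagtACGTGcctagctcggctcgca
Ankrd37 (chr8:45999987-46000016, minus strand, 2 cores at -155 to -148): ccttcactgcgCACGCGTGctgcggccgcc
Ankrd37 (chr8:45999851-45999880, minus strand, core at -6 to -2): ggctgcacatgtcagtgtttgggtACGTGa
Egln1 (chr8:124949364-124949393, minus strand, core at -126 to -122): ggcccggcccgccGCGTGcgcgcggccccc
Egln1 (chr8:124949306-124949335, minus strand, core at -68 to -64): ggggccgtggtgtACGTGcagcgcgcgcgg
Hif1a (chr12:73907720-73907749, plus strand, 2 cores at -135 to -130): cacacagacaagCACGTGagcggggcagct
Hif1a (chr12:73907784-73907813, plus strand, core at -70 to -66): ttggctgagagcaACGTGggctggggtggg

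Both cores were searched on both strands. Windows were found for 9 of the 10 members, and 7 members had at least 1 core in the 250 bases before a start, *Vhl* and *Hif1an* having none in theirs. Cores were not limited to the members shown, since the window of *Arnt* held 1 before the start and those of *Egln2* 4 and 1. Of the members shown, *Hif1a*, *Ankrd37*, *Egln1* and *Car9* have windows that run from a RefSeq start inside the GENCODE gene, and *Egln3* does not. The cores shown for *Hif1a*, *Ankrd37* and *Car9*, and that of *Egln1* nearer its start, therefore lie within the GENCODE gene interval. The strand of the *Hif1a* window was not matched to a GENCODE transcript as those of the other members were. Over all 32851 RefSeq windows of that length, 16.6% held ACGTG, 28.2% held GCGTG and 38.6% held either. These short words are therefore frequent, and a match describes the letters only. No binding was measured here.

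**Figure D1:**
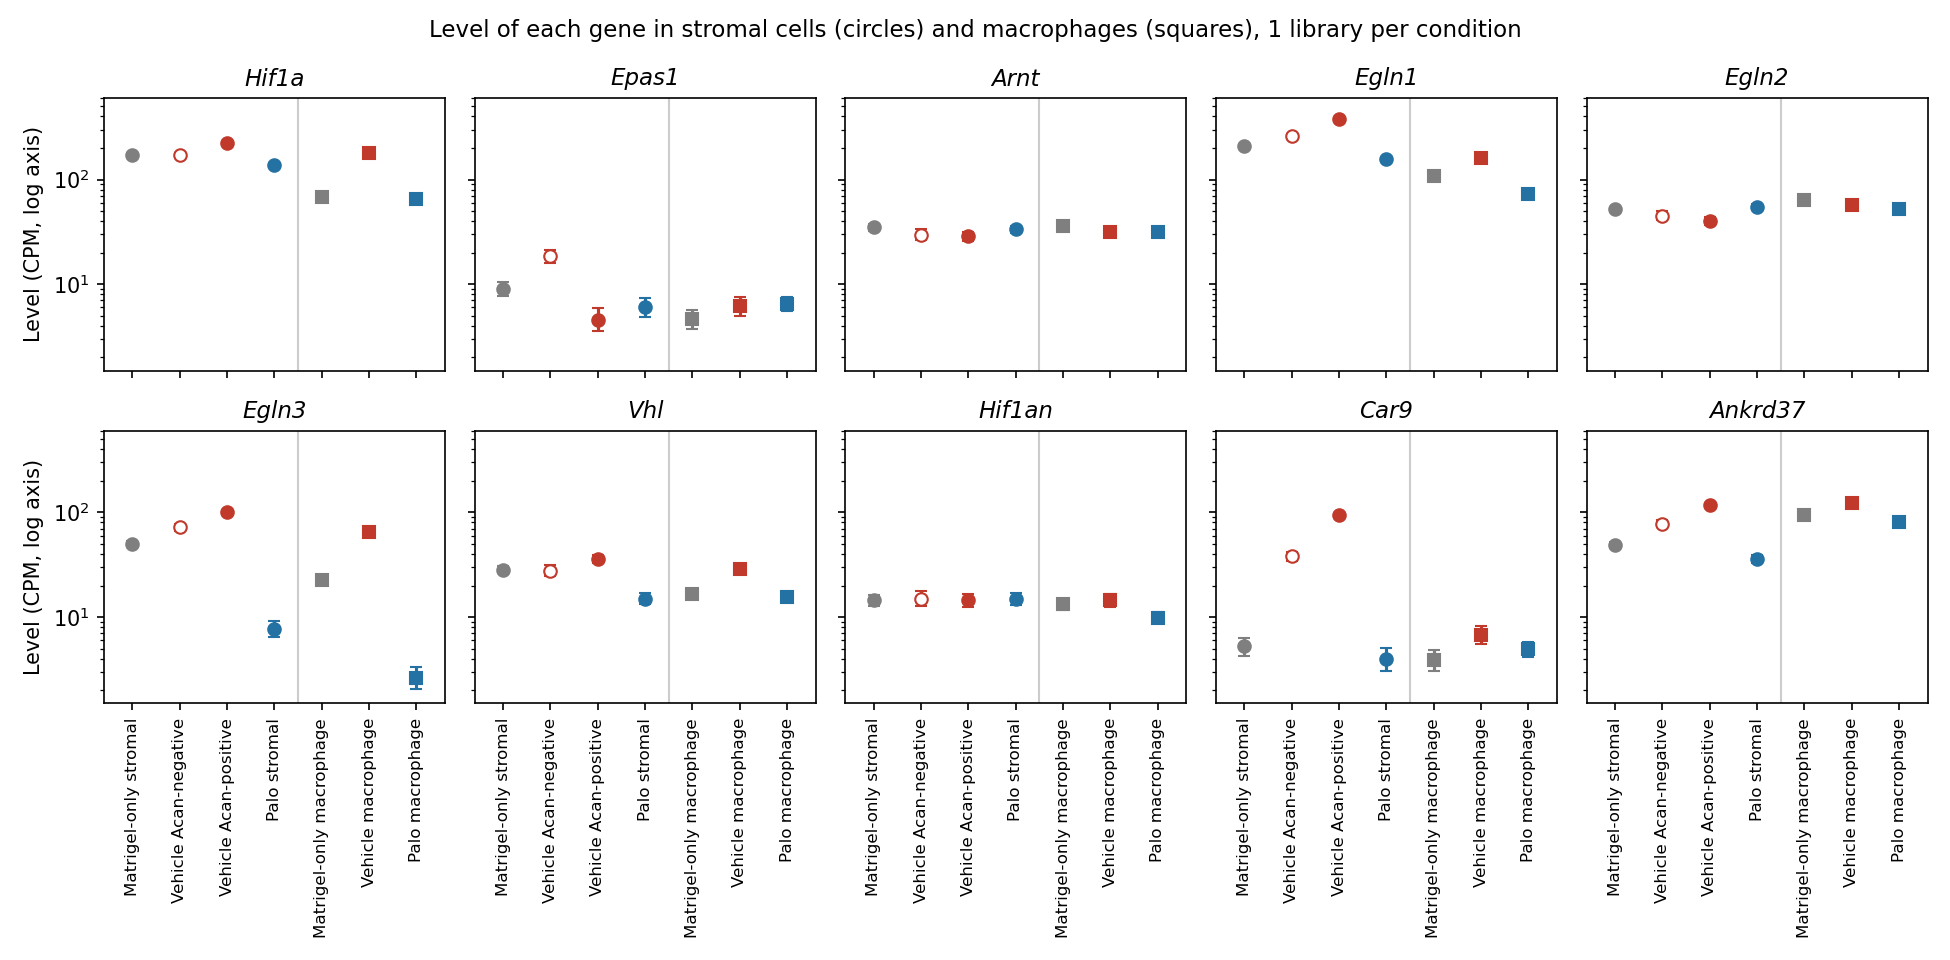
Level of each of the 10 genes (CPM, log axis) in stromal cells and macrophages of the Matrigel-only, Vehicle and Palo libraries, with Vehicle stromal cells split by *Acan*. Points are 1 library each and bars are exact Poisson 95% intervals; *Egln3* ran from 101 CPM in Vehicle *Acan*-positive cells to 2.62 CPM in Palo macrophages, while *Arnt* stayed between 28.7 and 35.9 CPM.

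*Hif1a* (chr12:73901375-73947530, plus strand) encodes the oxygen-regulated subunit of HIF-1. In stromal cells its level was 173 CPM (167 to 179) in Matrigel-only, 202 CPM (197 to 208) in Vehicle and 139 CPM (133 to 144) in Palo. Stromal levels therefore spanned a narrow range, with Vehicle 1.46-fold above Palo (1.39 to 1.54) and 1.17-fold above Matrigel-only (1.12 to 1.22). In macrophages the level was 68.6 CPM (65.1 to 72.3) in Matrigel-only, 179 CPM (172 to 186) in Vehicle and 65.3 CPM (62.3 to 68.4) in Palo. The Vehicle macrophages stood apart, 2.61-fold above Matrigel-only (2.44 to 2.79) and 2.74-fold above Palo (2.58 to 2.91), while the intervals of the other two overlapped. Thinned to 1400 UMIs per cell, 22.8% of Vehicle macrophages held a *Hif1a* UMI (21.3 to 24.4), against 9.40% in Matrigel-only and 8.58% in Palo. Without thinning the shares were 44.6%, 20.4% and 25.2%. Markers of other leukocytes were also highest in Vehicle macrophages. The 5 T and NK cell markers summed to 2.90, 33.1 and 1.17 CPM in macrophages of Matrigel-only, Vehicle and Palo, the 4 granulocyte markers to 38.1, 100.9 and 33.2 CPM and the 4 basophil markers to 0.0982, 16.2 and 0.0364 CPM. In the macrophages without a UMI of any of these, a split added after the levels were seen, *Hif1a* was 67.9 CPM (64.1 to 71.8) in Matrigel-only, 173 CPM (165 to 181) in Vehicle and 66.6 CPM (63.4 to 69.98) in Palo.

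Ordered over the 7 combinations of class and library, *Hif1a* was highest in Vehicle *Acan*-positive cells (224 CPM, 216 to 232). Vehicle macrophages, Matrigel-only stroma and Vehicle *Acan*-negative stroma (171 CPM) followed with neighbouring intervals that overlapped. Palo stroma and then the other macrophages came last. Macrophages held 88.5% of the stromal *Hif1a* level in Vehicle, 39.6% in Matrigel-only and 47.1% in Palo. For *Col1a1*, a collagen made by stroma and found in other droplets as free RNA, the same percentages were 0.941%, 0.578% and 0.375%. *Col1a1* is 1 of the 5 genes that set the limit between the classes, which lowers its percentages by construction. *Acan*, which is not part of that limit, was at 1.09% in Vehicle.

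*Epas1* (chr17:86753700-86833410, plus strand) encodes HIF-2α, known for its high level in endothelium. It was scarce, at 9.08 CPM (7.81 to 10.5) in Matrigel-only stroma, 10.3 CPM (9.01 to 11.6) in Vehicle and 6.00 CPM (4.855 to 7.335) in Palo. Within Vehicle stroma it was 18.4 CPM (15.8 to 21.3) in *Acan*-negative and 4.60 CPM (3.54 to 5.87) in *Acan*-positive cells, which is 4.01-fold lower with *Acan* (2.995 to 5.42). Of the 178 UMIs in *Acan*-negative cells, 23 lay in 1 cell. Endothelial markers summed to 14.1 CPM in the *Acan*-negative and 9.70 CPM in the *Acan*-positive cells, with *Cdh5* and *Cldn5* at 0 in the former. After thinning to 3100 UMIs, 4.77% of *Acan*-negative and 1.36% of *Acan*-positive cells held an *Epas1* UMI (12.8% and 5.78% without thinning). Macrophages had 4.67 CPM in Matrigel-only, 6.20 CPM in Vehicle and 6.49 CPM in the Palo library, with overlapping intervals between neighbours in that order. The share of Vehicle macrophages with an *Epas1* UMI, 0.783% thinned and 2.24% without thinning, was below that of *Acan*, a gene macrophages are not known to express (1.62% and 4.09%). As a percentage of the stromal level, however, macrophage *Epas1* was 60.4% in Vehicle (46.9 to 77.4), where *Acan* was 1.09%.

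*Arnt* (chr3:95434388-95497240, plus strand), the constitutive partner of both α subunits, was the steadiest member. Stromal levels were 35.1 CPM in Matrigel-only, 29.1 CPM in Vehicle and 33.3 CPM in the Palo library. Macrophage levels were 35.9 CPM, 31.8 CPM and 31.3 CPM in the same order. Every interval overlapped that of its neighbour in the order of the 7 combinations, though the highest and lowest were apart. Vehicle stroma held 0.829 times the *Arnt* level of Matrigel-only (0.745 to 0.923) and 0.872 times that of Palo (0.777 to 0.979). The root mean square deviation of *Arnt* from its own mean over those 7 points was 0.0963 on the log2 scale with 5 CPM added, the lowest of the 10 members.

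*Egln1* (chr8:124908587-124949324, minus strand) encodes PHD2, the main oxygen sensor that marks HIF-1α. Stromal cells had 207 CPM (201 to 214) in Matrigel-only, 331 CPM (323 to 338) in Vehicle and 156 CPM (150 to 162) in Palo. Vehicle stroma was thus above both other libraries, by 1.60-fold over Matrigel-only (1.54 to 1.66) and by 2.13-fold over Palo (2.03 to 2.22). Macrophages had 107 CPM (103 to 112) in Matrigel-only, 160.5 CPM (154 to 167) in Vehicle and 72.1 CPM (68.9 to 75.3) in Palo. The 3 intervals did not overlap, Vehicle being 1.497-fold above Matrigel-only and 2.23-fold above Palo (2.10 to 2.37). Palo was 1.33-fold below Matrigel-only in stroma and 1.49-fold below it in macrophages. Thinned shares of stromal cells with a UMI were 40.3%, 57.9% and 35.6% in Matrigel-only, Vehicle and Palo, and 65.9%, 89.3% and 74.7% without thinning.

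*Egln2* (chr7:27158658-27166802, minus strand) encodes PHD1, a hydroxylase that HIF does not induce in most cells. Its stromal levels were 51.7 CPM (48.6 to 55.0) in Matrigel-only, 42.1 CPM (39.5 to 44.8) in Vehicle and 54.6 CPM (51.0 to 58.3) in Palo. Here Vehicle was the lowest, 1.30-fold below Palo (1.18 to 1.42). Macrophages had 64.2 CPM, 56.5 CPM and 52.1 CPM in the same order, and the Vehicle and Palo intervals overlapped. No ratio of *Egln2* passed the fold.

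*Egln3* (chr12:54178981-54203860, minus strand) encodes PHD3, the hydroxylase most strongly induced by HIF in many cell types. In stromal cells it had 1007 UMIs or 50.2 CPM (47.2 to 53.4) in Matrigel-only, 2098 UMIs or 88.9 CPM (85.2 to 92.8) in Vehicle and 122 UMIs or 7.71 CPM (6.399 to 9.20) in Palo. Palo stood far below the others, Vehicle being 11.5-fold above it (9.61 to 13.97), whereas Vehicle was 1.77-fold above Matrigel-only (1.64 to 1.91). Against the BMP2-free implant, Palo stroma was 6.52-fold lower (5.40 to 7.93). Macrophages gave 22.6 CPM (20.6 to 24.8) in Matrigel-only, 64.4 CPM (60.3 to 68.7) in Vehicle and 2.62 CPM (2.05 to 3.30) in Palo. The order was that of the stroma, with Vehicle 24.5-fold above Palo (19.3 to 31.6), 2.84-fold above Matrigel-only (2.54 to 3.19), and Palo 8.63-fold below Matrigel-only (6.72 to 11.2).

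The share of cells with *Egln3* moved in the same order as its level. Thinned stromal shares were 9.59% (8.30 to 11.01) in Matrigel-only, 19.1% (17.0 to 21.3) in Vehicle and 2.08% (1.33 to 3.09) in Palo, and 19.95%, 46.0% and 8.36% without thinning. In macrophages they were 3.26%, 9.66% and 0.360%, and 6.64%, 19.1% and 1.25% without thinning. The interval of the Palo macrophage share (0.2197 to 0.556) overlapped that of *Pdgfra*, a mesenchymal gene, in the same cells (0.156%, 0.0696 to 0.299). No Palo stromal cell had more than 4 *Egln3* UMIs, while single cells reached 41 in Vehicle and 16 in Matrigel-only. Across the 7 combinations the intervals of *Egln3* were apart at every step except between Vehicle *Acan*-negative stroma (72.1 CPM, 66.9 to 77.7) and Vehicle macrophages.

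*Vhl* (chr6:113623959-113631633, plus strand), the substrate receptor of the ligase that removes hydroxylated HIF-α, had 28.4 CPM (26.1 to 30.8) in Matrigel-only stroma, 32.5 CPM (30.3 to 34.9) in Vehicle and 15.03 CPM (13.2 to 17.1) in Palo. Palo was the low library, 2.16-fold under Vehicle (1.87 to 2.51) and 1.89-fold under Matrigel-only (1.62 to 2.21). In macrophages Vehicle was the high library, with 28.7 CPM (26.0 to 31.6) against 16.5 CPM (14.8 to 18.4) in Matrigel-only and 15.4 CPM (13.98 to 16.95) in Palo. *Hif1an* (chr19:44562850-44576274, plus strand), which encodes the asparaginyl hydroxylase FIH that blocks coactivator binding, was near 14.5 CPM in Matrigel-only, 14.7 CPM in Vehicle and 14.8 CPM in the stroma of Palo. Its stromal intervals overlapped throughout. Palo macrophages, at 9.87 CPM (8.73 to 11.1), stood apart from the 13.2 CPM of Matrigel-only and 14.5 CPM of Vehicle macrophages.

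*Car9* (chr4:43506966-43513729, plus strand) encodes carbonic anhydrase IX, a surface enzyme that regulates pH and a classical HIF-1 target. Stromal cells held 105 UMIs or 5.24 CPM (4.28 to 6.34) in Matrigel-only, 1670 UMIs or 70.8 CPM (67.4 to 74.3) in Vehicle and 63 UMIs or 3.98 CPM (3.06 to 5.09) in Palo. Vehicle stroma was the high library by 13.5-fold over Matrigel-only (11.1 to 16.6) and 17.8-fold over Palo (13.8 to 23.3). The intervals of Matrigel-only and Palo overlapped. The 63 Palo UMIs lay in 32 cells, 10 of which had at least 2. Thinned shares were 0.936% in Matrigel-only, 14.5% in Vehicle (12.6 to 16.5) and 0.991% in Palo, and 2.01%, 28.2% and 2.70% without thinning.

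In macrophages *Car9* stayed low, at 3.88 CPM in Matrigel-only, 6.76 CPM in Vehicle and 4.92 CPM in the Palo library. The Vehicle macrophage level was 9.55% of the stromal one (7.70 to 11.7), against 1.09% for *Acan* and 1.26% for *Col2a1*. The share of Vehicle macrophages with a *Car9* UMI, 0.885% after thinning and 2.86% without, was below that of *Acan* (1.62% and 4.09%). Where stroma held little *Car9*, the macrophage level was 74.1% of it in Matrigel-only (54.6 to 100.1) and 124% in Palo (91.01 to 169).

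*Ankrd37* (chr8:45996902-46005707, minus strand), a small ankyrin repeat gene induced directly by HIF-1, had 49.1 CPM (46.1 to 52.3) in Matrigel-only stroma, 101 CPM (97.2 to 105) in Vehicle and 35.7 CPM (32.9 to 38.8) in Palo. Vehicle was 2.06-fold above Matrigel-only (1.91 to 2.22) and 2.83-fold above Palo (2.58 to 3.11). In macrophages it was 94.9 CPM, 123 CPM and 80.8 CPM in the same order, with 3 intervals apart but no ratio past the fold. Unlike that of *Egln3*, its macrophage level exceeded the stromal level in each library, at 193%, 121% and 226% of it in Matrigel-only, Vehicle and Palo. The gene overlaps *Ufsp2* and *Lrp2bp* on the opposite strand, *Car9* overlaps *Gm12454*, *Egln2* overlaps *Cyp2t4* and *Hif1a* overlaps *Gm15283*. The strand setting of the counting is not given in the sources used here, so reads of these pairs may not be separable. On the same strand, *Hif1a* overlaps *Gm49321*, *Epas1* overlaps *AC096777.1* and *Arnt* overlaps *Gm42672*, pairs that strand cannot separate.

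**Figure D2:**
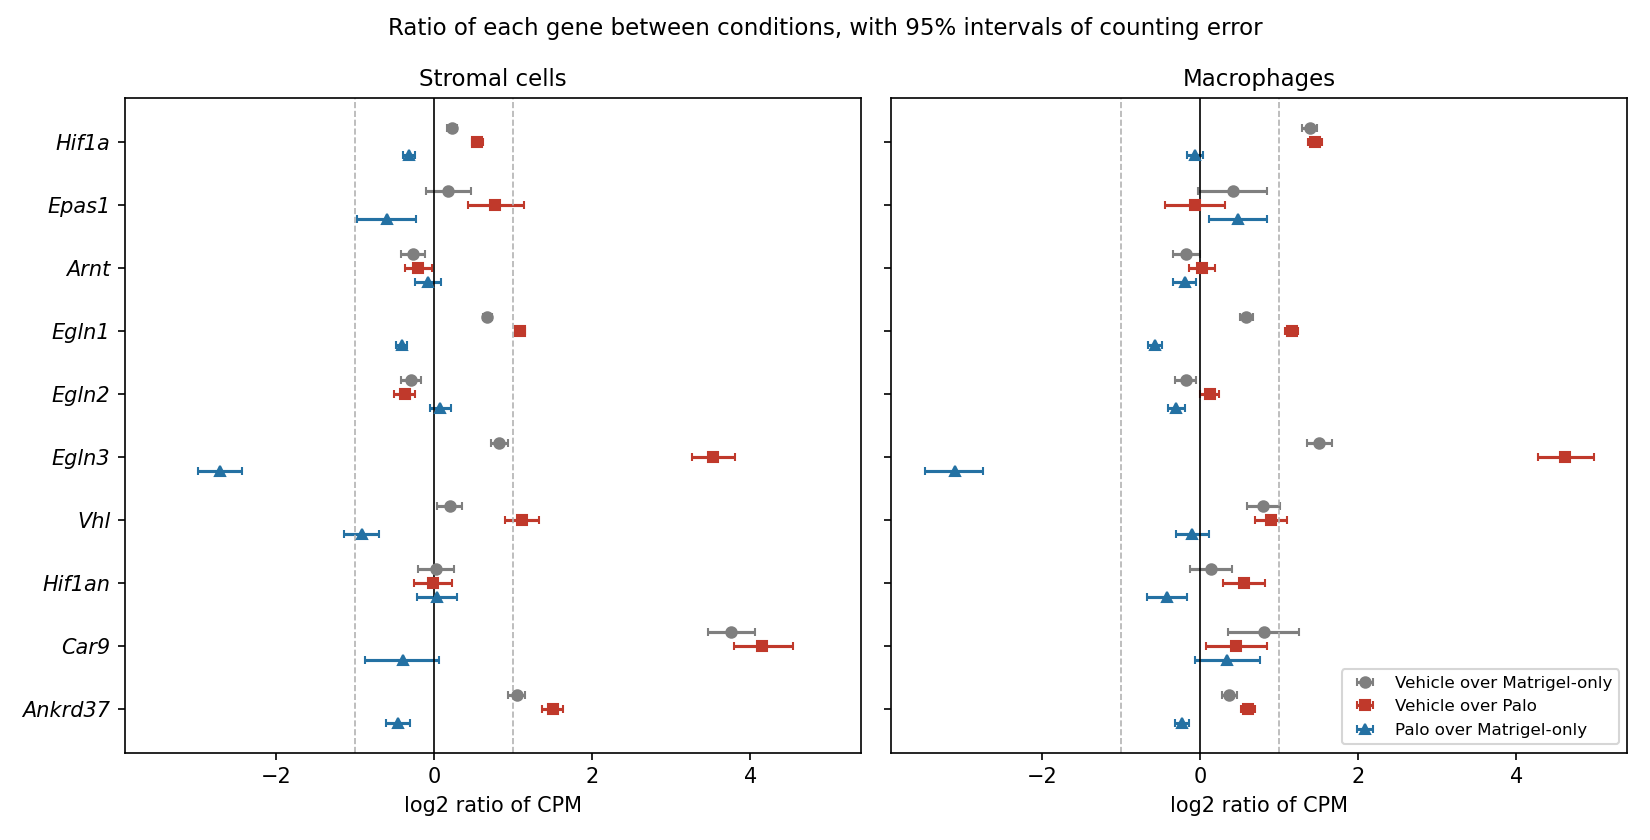
Log2 ratio of CPM for each of the 10 genes in the 3 comparisons of libraries, in stroma and in macrophages, with conditional binomial 95% intervals from counting error only. The widest ratios were those of *Car9* in stroma (4.15 for Vehicle over Palo) and *Egln3* in both classes (3.53 and 4.62 for Vehicle over Palo).

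Set against all genes, the members' counts read as follows. For Vehicle over Matrigel-only in stroma, 2 of 10 members were higher (*Car9* and *Ankrd37*) and 0 lower, where 4.54% of 10349 genes with a mean of at least 5 CPM were higher and 9.09% lower. The median log2 ratio was 0.21 for the members and -0.04 for all genes. For Vehicle over Palo in stroma, 5 of 10 were higher (*Egln1*, *Egln3*, *Vhl*, *Car9* and *Ankrd37*) and 0 lower, with a background of 4.66% higher and 6.19% lower of 10233 genes and medians of 0.87 and -0.01. *Vhl* was at the limit there, its log2 ratio of 1.06 falling to 0.94 with likely doublets left out and to 0.91 with 5 CPM added. For Palo over Matrigel-only, 0 were higher and 1 lower (*Egln3*), with a background of 0.547% and 1.72% of 10230 genes and medians of -0.37 and -0.03. *Car9* was the one member under a mean of 5 CPM in that comparison, where 9 members met it, and all 10 met it in the other stromal comparisons.

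In macrophages, 2 of 10 members were higher in Vehicle than in Matrigel-only (*Hif1a* and *Egln3*) and 0 lower, against 3.71% and 2.27% of 9622 genes. The medians were 0.47 for the members and 0.00 for all genes. For Vehicle over Palo, 3 were higher (*Hif1a*, *Egln1* and *Egln3*) and 0 lower, against 4.52% and 1.55% of 9508 genes, with a member median of 0.55. For Palo over Matrigel-only, 0 were higher and 1 lower (*Egln3*), against 0.771% and 1.37% of 9467 genes, with a member median of -0.21. *Car9* was again under a mean of 5 CPM in the last of these, and 9 members met it.

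The median of all macrophage genes was itself shifted, by 0.17 for Vehicle over Palo and by -0.16 for Palo over Matrigel-only. Relative to that shift (1 CPM added), the log2 ratios of Vehicle over Palo were 4.01 for *Egln3*, 1.27 for *Hif1a*, 0.98 for *Egln1*, 0.69 for *Vhl* and 0.43 for *Ankrd37*. That of *Hif1an* was 0.34 in place of 0.51. The log2 ratios of Palo over Matrigel-only, taken in the same way, were -2.55 for *Egln3*, -0.41 for *Egln1* and 0.09 for *Hif1a*. *Hif1an* was at -0.23 there in place of -0.39. With TMM scaling, the genes past the fold for Vehicle over Palo split into 319 higher and 234 lower in place of 430 and 147, and for Palo over Matrigel-only into 113 and 84 in place of 73 and 130. *Egln1* fell short of the fold in macrophages under TMM, at 0.95 for Vehicle over Palo, and *Hif1a* turned from -0.07 to 0.11 for Palo over Matrigel-only.

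Stromal cells with *Acan* were found almost only in Vehicle, so the stromal levels were also compared within it. *Acan*-positive cells had more *Car9* (93.5 CPM, 88.5 to 98.7) than *Acan*-negative cells (38.1 CPM, 34.3 to 42.2), a ratio of 2.46 (2.19 to 2.77). *Ankrd37* was 117 against 78.1 CPM, *Egln1* 379 against 261 CPM, *Egln3* 101 against 72.1 CPM, *Hif1a* 224 against 171 CPM and *Vhl* 35.8 against 27.7 CPM. These 5 were between 1.29-fold and 1.502-fold higher with *Acan*, none past the fold, and *Arnt*, *Egln2* and *Hif1an* had overlapping intervals. Of the 10 members, 1 was past the fold upward (*Car9*) and 1 downward (*Epas1*), where 2.34% and 3.64% of 10115 genes were, with medians of 0.37 and -0.01.

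The *Acan*-negative Vehicle cells alone already stood above the pooled stroma of the other libraries for the HIF-induced members. For *Egln3*, the intervals of Vehicle and Matrigel-only overlapped once cells with *Pi16* were also set aside, as given below. The *Egln1* levels of these libraries also came closer to each other in that split. Their chondrocyte markers summed to 398 CPM, also above the 73.5 CPM of Matrigel-only and 119.9 CPM of Palo stroma. The part of chondrogenic cells without an *Acan* UMI in these levels was not tested. The *Car9* level of the *Acan*-negative Vehicle cells was 7.27-fold that of Matrigel-only stroma (5.84 to 9.12) and 9.57-fold that of Palo (7.31 to 12.7). Their *Egln3* level was 1.44-fold that of Matrigel-only (1.30 to 1.58) and 9.36-fold that of Palo (7.71 to 11.4). Their *Hif1a* level differed from Matrigel-only by a log2 ratio of -0.02 (-0.10 to 0.07). *Epas1* was 2.03-fold (1.64 to 2.51) and 3.07-fold (2.38 to 3.98) above Matrigel-only and Palo in these cells, which the pooled stroma did not show to that extent. With 1 CPM added, the former fell short of the fold (log2 0.95). Of their 178 *Epas1* UMIs, 23 lay in 1 cell.

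Among *Acan*-positive cells, the 407 with a UMI of the cartilage collagen *Col2a1* were compared with the 372 without. *Car9* was 99.2 against 87.2 CPM, *Hif1a* 247 against 198 CPM and *Egln1* 401 against 355 CPM, all higher with *Col2a1*. *Egln3* went the other way, at 94.4 against 108 CPM, and *Ankrd37* (116 against 118 CPM) hardly differed. *Epas1* was 3.13 CPM with *Col2a1* and 6.23 CPM without.

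Stromal cells also differ in how many still carry *Pi16*, a gene of resting adventitial fibroblasts, and this split was added after the levels were seen. In Matrigel-only, *Egln3* was 16.4 CPM in the 1153 cells with a *Pi16* UMI and 82.8 CPM in the 932 without, and *Car9* was 0.609 and 9.71 CPM. *Hif1a* was 171 and 175 CPM, with overlapping intervals. With both *Pi16* and *Acan* cells set aside, *Egln3* was 82.8 CPM (77.4 to 88.6) in Matrigel-only, 83.6 CPM (77.3 to 90.3) in Vehicle and 9.14 CPM (7.48 to 11.1) in Palo. The Matrigel-only and Vehicle intervals overlapped there, and Palo stayed apart. *Car9* in the same cells was 9.71, 46.7 and 5.09 CPM, with Vehicle apart from both. *Egln1* was 271, 283 and 164 CPM. The cells with *Pi16* were 1153 of 2085 in Matrigel-only, 167 of 1373 in Vehicle and 368 of 1184 in Palo stroma, at median depths of 8419, 14549 and 11021.5 UMIs, and the part of depth in a detected *Pi16* UMI was not tested.

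Macrophages were split in the same manner, after their levels were seen, by a UMI of *Stab1* or *Ms4a7*, genes of mature tissue macrophages. *Hif1a* was 65.5, 195 and 60.8 CPM with either gene in Matrigel-only, Vehicle and Palo, and 74.4, 148 and 71.1 CPM with neither. *Egln3* was 19.5, 70.8 and 2.20 CPM with either, and 28.7, 51.6 and 3.18 CPM with neither. Vehicle was the highest library and Palo the lowest for *Egln3* in both groups, and Vehicle the highest for *Hif1a* in both. In the macrophages with a UMI of *Mmp12*, a secreted elastase, *Hif1a* was 61.6, 90.2 and 65.2 CPM.

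**Figure D3:**
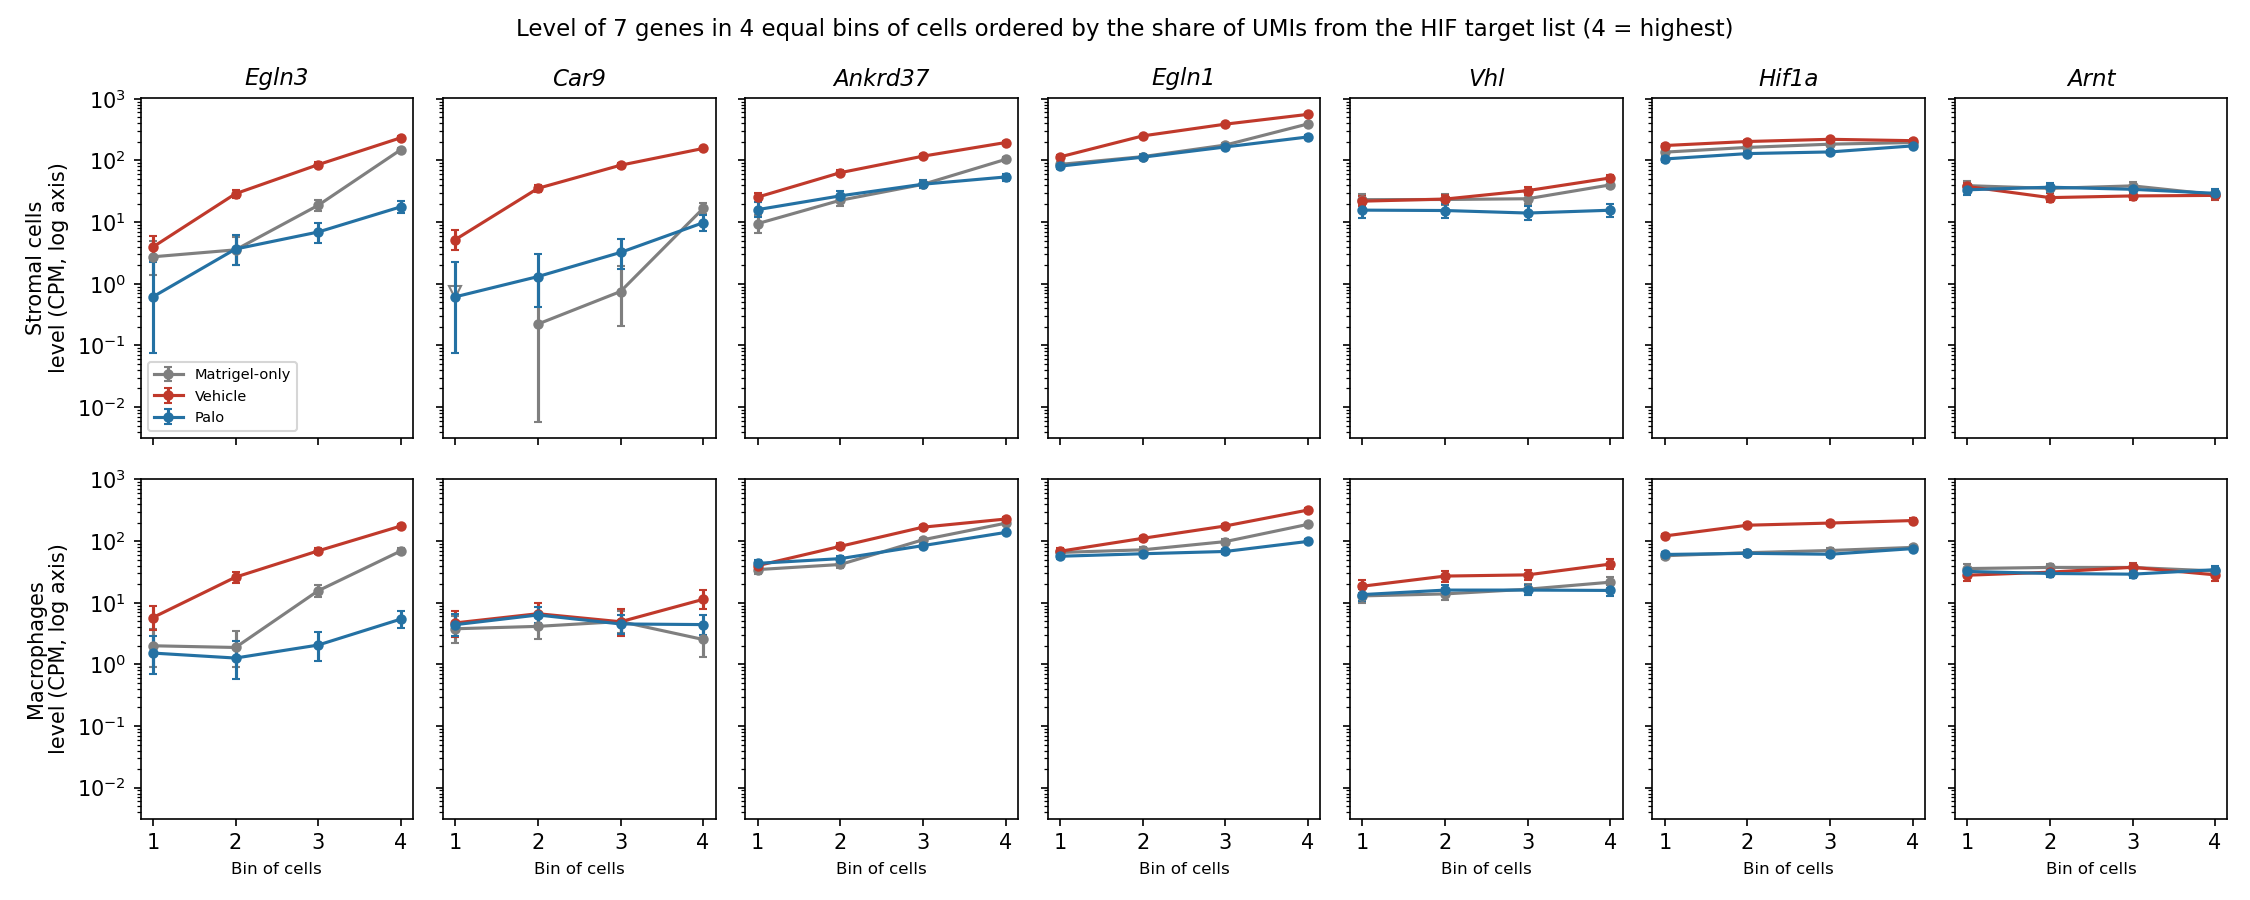
Level (CPM, log axis) of members in 4 equal bins of the cells of each library, ordered from low to high by the share of UMIs from 24 HIF target genes that hold none of the members; bars are exact Poisson 95% intervals. *Egln3* went from 3.94 to 233 CPM over the bins of Vehicle stroma and from 0.613 to 17.7 CPM in Palo, while *Hif1a* ran from 175 to 209 CPM in Vehicle; an open triangle marks the level that 3 counts would give where a bin held none.

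How the members vary among cells of 1 library was described by ordering the cells by the share of their UMIs from 24 other genes commonly induced by HIF, glycolytic enzymes left out. Cells with at least 3100 UMIs (stroma) or 1400 UMIs (macrophages) were cut into 4 bins equal in number to within 1 cell. The bins are ranges of a continuous score, not cell types, and their limits were set within each library. The highest bin of stroma began above 4914 target UMIs per 1000000 in Matrigel-only, 9709 in Vehicle and 3909.5 in the Palo library. *Egln3* went from 2.73 CPM in the lowest bin to 149 CPM in the highest in Matrigel-only stroma, from 3.94 to 233 CPM in Vehicle and from 0.613 to 17.7 CPM in Palo. That is 54.5-fold (30.3 to 109.7), 59.1-fold (38.9 to 94.7) and 28.8-fold (7.71 to 242), the last with 2 UMIs in its lowest bin. *Car9* went from 5.19 to 157 CPM in Vehicle stroma and from 0.613 to 9.76 CPM in Palo. In Matrigel-only it had no UMI in the lowest bin and 16.6 CPM in the highest, at least 22.3-fold higher when set against 3 counts in the lowest bin. *Egln1* was 4.54-fold, 4.895-fold and 2.97-fold higher in the top than in the bottom bin, and *Ankrd37* 11.01-fold, 7.67-fold and 3.38-fold in Matrigel-only, Vehicle and Palo.

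*Hif1a* and *Arnt* varied less along this score. *Hif1a* in the top bin was 1.43-fold, 1.20-fold and 1.63-fold that of the bottom bin of Matrigel-only, Vehicle and Palo stroma. *Arnt* was 0.717, 0.717 and 0.877 times the bottom bin. *Epas1* was 1.30 times the bottom bin in Matrigel-only stroma (0.844 to 2.03), 0.460 times in Vehicle (0.294 to 0.708) and 0.787 times in Palo (0.447 to 1.39). In macrophages it was 3.01-fold in Matrigel-only (1.54 to 6.32), 1.70-fold in Vehicle (0.829 to 3.57) and 2.98-fold in Palo (1.84 to 5.03). *Vhl* was 1.74-fold higher in Matrigel-only and 2.38-fold in Vehicle, and 0.997 times in Palo (0.682 to 1.46). In macrophages *Egln3* was higher in the top bin by 34.5-fold, 30.5-fold and 3.55-fold, *Egln1* 2.86-fold, 4.66-fold and 1.74-fold, and *Hif1a* 1.37-fold, 1.78-fold and 1.25-fold. *Ankrd37* was higher there by 5.65-fold, 5.70-fold and 3.17-fold. Macrophage *Car9*, at low levels, was 0.670 times the bottom bin in Matrigel-only (0.292 to 1.49). It was 2.41 times in Vehicle (1.32 to 4.54) and 1.003 times in Palo (0.576 to 1.76). In Vehicle stroma *Acan* went from 358 to 2000.3 CPM and *Col2a1* from 621 to 2621 CPM over the same bins, and the median share of mitochondrial UMIs fell from 2.81% to 1.86%. Their part in these ranges was not tested.

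**Figure D4:**
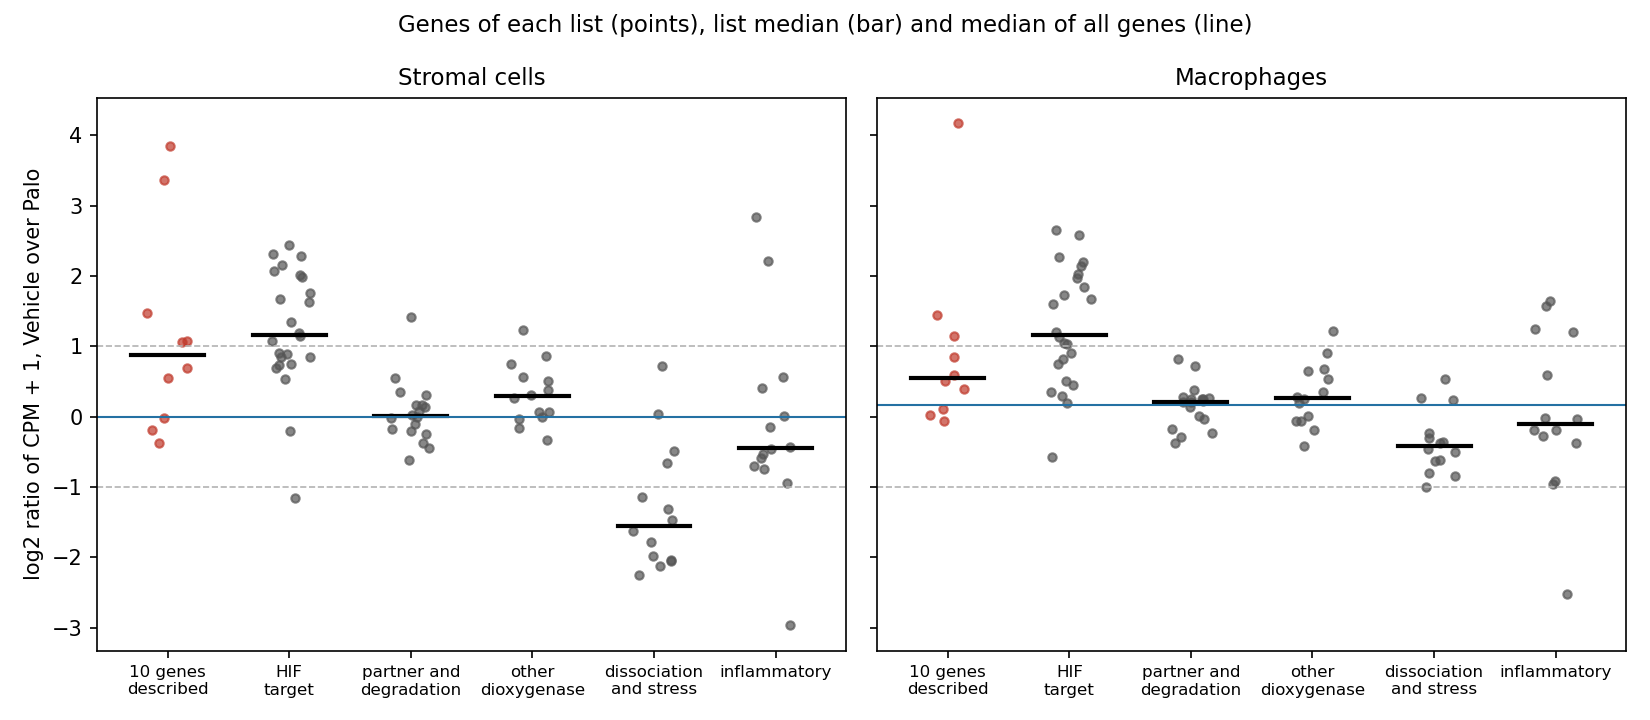
Log2 ratio of Vehicle over Palo (1 CPM added) for the 10 members (red) and each gene of the HIF target, HIF partner and degradation, other dioxygenase, dissociation and stress, and inflammatory lists, in stroma and macrophages. Black bars are list medians, the blue line the median of all genes and dashed lines the limit of 2-fold. The HIF target medians were 1.16 in stroma and 1.17 in macrophages for Vehicle over Palo, against -0.01 and 0.17 for all genes.

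The 24 HIF target genes gave the setting for the members. Counts of this and the following lists include genes under a mean of 5 CPM, which the shares of all genes leave out. For Vehicle over Palo, 14 were higher and 1 lower in stroma (median 1.16), where 4.66% and 6.19% of all genes were. The higher genes included the mTORC1 inhibitor *Ddit4* (171 against 30.6 CPM), the glucose transporter *Slc2a1* (147 against 28.7 CPM) and *Ndrg1* (334 against 74.0 CPM). In macrophages 15 were higher and 0 lower (median 1.17), where 4.52% and 1.55% of all genes were. The 15 included the adenylate kinase *Ak4* (23.3 against 3.06 CPM), the vessel growth factor *Vegfa* (56.8 against 8.16 CPM) and the mitophagy receptor *Bnip3* (207 against 44.2 CPM). They also included *Adm* (5.92 against 1.17 CPM), *Stc2* (4.67 against 0.583 CPM) and *Car12* (2.23 against 0.401 CPM), which were at low levels. For Palo over Matrigel-only, 0 were higher and 7 lower in stroma (median -0.52), led by *Slc2a1* (28.7 against 97.3 CPM), and 0 higher and 9 lower in macrophages (median -0.68), led by *Ak4* (3.06 against 15.5 CPM). Of all genes, 0.547% were higher and 1.72% lower in stroma, and 0.771% and 1.37% in macrophages. The 9 included *Plod2* (1.89 against 4.91 CPM) and *Stc2* (0.583 against 2.50 CPM), both at low levels.

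Between Vehicle and Matrigel-only, which differ in both rhBMP2 and dosing, fewer genes of the list passed the fold. For Vehicle over Matrigel-only, 5 were higher and 1 lower in stroma (median 0.62), with *Ddit4* at 171 against 49.0 CPM and the lipase inhibitor *Angptl4* lower at 61.1 against 145 CPM. In macrophages 5 were higher and 0 lower (median 0.71), with *Vegfa* at 56.8 against 21.5 CPM. Of all genes, 4.54% were higher and 9.09% lower in stroma, and 3.71% and 2.27% in macrophages. For *Acan*-positive over *Acan*-negative cells, 0 were past the fold either way (median 0.33), where 2.34% of all genes were higher and 3.64% lower.

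The machinery around the members gave counts near the shares of all genes, so the genes named here are not set apart from that background. Of 18 partners and degradation factors, which include further subunits, coactivators and parts of the VHL ligase, only the ubiquitin ligase *Siah2* passed the fold, in stroma. It had 25.2 CPM in Vehicle against 11.4 in Matrigel-only and 8.84 in Palo, where 4.54% and 4.66% of all genes were higher. In macrophages 0 of 18 passed in any comparison, and the list medians lay between -0.09 and 0.21 over all 7 comparisons. Of 14 other oxygen-dependent dioxygenases, *Tet1*, a DNA demethylase, was past the fold in stroma (26.0 CPM in Vehicle, 12.2 in Matrigel-only, 10.5 in Palo), and 35.2 against 12.8 CPM with and without *Acan*. By *Acan*, 2.34% of all genes were higher. The histone demethylase *Kdm5b* was past the fold in macrophages (43.9 CPM in Vehicle against 18.3 in Palo), where 4.52% of all genes were higher. For Palo over Matrigel-only 0 of 14 passed in either class.

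A pair of further lists was read beside the members, one for dissociation and stress and one for inflammation. Of 14 dissociation and stress genes, 10 were lower in Vehicle stroma than in Matrigel-only (median -1.36) and 10 lower than in Palo (median -1.55), such as *Dusp1* at 41.0 against 207 CPM in Matrigel-only, with 1 higher in the former comparison and 0 in the latter. Of all stromal genes, 9.09% were lower in Vehicle than in Matrigel-only and 6.19% lower than in Palo. In macrophages 0 stress genes were higher and 2 lower in Vehicle than in Matrigel-only (median -0.31), where 2.27% of all genes were lower. Against Palo 0 passed (median -0.42). For Palo over Matrigel-only 0 passed in either class (medians 0.12 and 0.07), and with *Acan* 0 were higher and 1 lower (median -0.14). Their part in the members' levels was not tested.

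Of 14 inflammatory genes, 2 were higher and 1 lower in Vehicle than in Matrigel-only macrophages (median 0.47), and 4 higher and 1 lower than in Palo (median -0.11). Of all genes, 3.71% were higher and 2.27% lower in the former comparison, and 4.52% and 1.55% in the latter. The 4 included *Nos2* (20 UMIs against 1) and *Ptgs2* (7.11 against 1.71 CPM), both at low levels. The cytokine *Il1b* was 202 CPM in Vehicle, 53.6 in Matrigel-only and 64.2 in Palo, in the same order of Vehicle above both as *Hif1a*. The chemokine *Cxcl2* had the opposite order, at 56.1, 237 and 325 CPM. For Palo over Matrigel-only 2 were higher and 0 lower (median 0.35). In stroma the counts were 2 higher and 3 lower for Vehicle over Matrigel-only, 2 and 1 for Vehicle over Palo, 0 and 1 for Palo over Matrigel-only and 0 and 0 by *Acan*, with medians of -0.37, -0.45, 0.08 and 0.00. The shares of all genes in these comparisons are those given with the members' counts. The part of these genes in the macrophage *Hif1a* level was not tested.

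The genes whose profile over the 7 combinations lay closest to each member were found among 10545 genes, by the root mean square difference of centred log2 values with 5 CPM added. *Egln3* was nearest to *Slc2a1* (0.41), *Bnip3* (0.46) and *Ak4* (0.54), all on the HIF target list, although its own deviation of 1.33 was larger than its distance to them. *Car9* was nearest to *Cdc42ep3* (0.18), *Gper1* (0.22) and *Tspan2* (0.22), with its own deviation at 1.27. *Cdc42ep3* had 206 CPM in Vehicle *Acan*-positive and 126 CPM in *Acan*-negative cells, and 22.5 to 30.1 CPM elsewhere. *Ankrd37* was nearest to *Pfkfb3* (0.15), *Ripk2* (0.17) and *Lonrf1* (0.19), and *Egln1* to *Pgm2* (0.16), *4931428F04Rik* (0.17) and *Srprb* (0.18).

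*Hif1a* lay closest to *Clic4* (0.19), *Acot7* (0.22) and *Stk38l* (0.22), with an own deviation of 0.63. *Vhl* was nearest to *Abtb2* (0.16), *Ccng2* (0.16) and *Mllt3* (0.17). *Epas1* had no close match, its nearest genes *Wdfy1*, *Plekhg2* and *Gm14296* lying at 0.23 to 0.27 against an own deviation of 0.41. For near-flat members this search picks near-flat neighbours by construction. *Arnt* came with *Itpkc*, *0610010F05Rik* and *Tubgcp3*, *Egln2* with *Axin1*, *Mgea5* and *Usp32*, and *Hif1an* with *Uba2*, *Tmed8* and *Ywhae*. The 7 points come from 3 libraries, so likeness within a library is shared by every gene of it.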

How the data were processed

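The deposited files hold raw UMI counts per gene and cell barcode, 1 matrix per library, which the authors made with Cell Ranger 3.0.2 on mm10 and analysed in Seurat 3, per the submitters' processing notes. Whether strand was used in counting is not given in the sources used here, nor is the number of mice behind a library, for which the study names several ectopic masses per group. Cells with 200 to 6000 genes and at most 5% mitochondrial UMIs, the study's limits, were kept: 8728 of 9249 barcodes in Matrigel-only, 5478 of 6065 in Vehicle and 7297 of 7905 in Palo. The kept cells held 42335300 of 44252400 UMIs in Matrigel-only, 40180200 of 46317200 in Vehicle and 44682600 of 46901700 in Palo, to 6 digits. No doublet caller was run. Counts were summed over the cells of a class and divided by their total (20049100 UMIs in Matrigel-only, 23591200 in Vehicle and 15832200 in the stroma of Palo, and 20363300, 14355600 and 27443100 in macrophages, to 6 digits). For shares, cells were thinned to 3100 UMIs (stroma) or 1400 UMIs (macrophages), and shallower cells left out. The named genes were all members, up to 6 past the fold of each list, and the 3 nearest profiles of each member. Members and lists were chosen with earlier results of these data known. The splits by *Pi16*, *Stab1* or *Ms4a7*, *Mmp12*, endothelial genes, the cell of most *Epas1* and other leukocyte markers were added after the data were seen. The alternatives concerned scaling, added CPM, cell limits, class limits, likely doublets and the fold. The limits of 200 and 6000 genes per cell were not varied. Scripts were tested on simulated data. Python 3.11.15, numpy 2.4.6, scipy 1.17.1, pandas 2.3.3, R 4.3.3 and edgeR 4.0.16 (TMM factors only) were used. Gene positions are those of GENCODE on GRCm38.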

Additional observations from a re-analysis of the deposited data

Results flagged for a closer look

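*Epas1* moved in opposite directions in the 2 classes between Palo and Matrigel-only, with a log2 ratio of -0.60 (-0.97 to -0.23) in stroma and 0.48 (0.11 to 0.85) in macrophages, on 95 against 182 and 178 against 95 UMIs. The difference between the classes was not tested.

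Cells outside the stromal and macrophage classes also held some members above their level in the Matrigel-only control. *Hif1a* reached 323 CPM (279.6 to 371) in the 241 Vehicle cells gated as T or NK cells, against 59.4 CPM (23.9 to 122) in 69 Matrigel-only cells and 151 CPM (95.8 to 227) in 61 Palo cells. In the same gate, *Egln1* was 207 against 280 CPM, *Ankrd37* 51.6 against 93.3 CPM and *Egln3* 40.3 against 17.0 CPM in Vehicle and Matrigel-only. The intervals of these genes overlapped between the libraries. In the remaining, ungated Vehicle cells, 482 in number, *Hif1a* was 179.9 CPM (159 to 203), *Egln3* 51.5 CPM (40.5 to 64.5), *Epas1* 74.8 CPM (61.4 to 90.3) and *Car9* 8.24 CPM (4.26 to 14.4). The same cells of Matrigel-only gave 65.9, 24.4, 4.99 and 0.554 CPM. *Ankrd37* was lower in these Vehicle cells, at 77.6 CPM (63.9 to 93.3) against 122 CPM (106 to 139) in Matrigel-only. *Egln1* hardly differed between them, at 145.6 and 146.3 CPM. The 8 macrophage markers gave the largest sums in these remaining cells, 5272 CPM in Vehicle and 9507 CPM in Matrigel-only. The part of macrophages without a UMI of *Csf1r* or *C1qa* in these levels was not tested. Endothelial markers summed to 479.9 CPM in the Vehicle cells and 46.0 CPM in those of Matrigel-only, and chondrocyte markers to 603.5 and 5.54 CPM. With 2 or more UMIs of *Cdh5*, *Emcn*, *Cldn5*, *Kdr* and *Egfl7* in a cell, a split added after the values were seen, 15 Vehicle cells held *Epas1* at 704 CPM and the other 467 at 7.60 CPM. Of the 109 *Epas1* UMIs of the remaining Vehicle cells, 90 lay in 1 cell. Without it the level was 13.3 CPM (8.03 to 20.8) over 481 cells, and 83.3 CPM (38.1 to 158) on 9 UMIs in the 14 other cells with the endothelial genes.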

How the results depend on the processing

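No ratio past the fold changed sign under any alternative tried. Each alternative value was set against the counting interval of its ratio, widened on both sides by the shift that adding 1 CPM makes. Of 184 alternative values for the 16 ratios past the fold, 166 lay within that range and 18 outside it. With a limit of 1.5-fold, the members past it became 4 (from 2) for Vehicle over Matrigel-only in stroma, 2 (from 1) for Palo over Matrigel-only in stroma, 4 (from 2) for Vehicle over Matrigel-only and 5 (from 3) for Vehicle over Palo in macrophages. The HIF targets higher became 14 (from 5) for Vehicle over Matrigel-only in stroma, 6 (from 0) by *Acan*, and 13 (from 5) for Vehicle over Matrigel-only in macrophages. The share of all genes past 1.5-fold was not computed, so the counts at that limit have no background beside them. With 5 CPM added, the members past the fold for Vehicle over Matrigel-only in stroma fell to 1 (*Car9*) and the HIF targets in macrophages to 2, and with 0.1 CPM added the latter were 8. With TMM factors the HIF targets for Vehicle over Matrigel-only were 8 in stroma and 2 in macrophages, with the mean of single-cell CPM 9 in stroma, and with a stromal limit of 2% 8 in macrophages. Of all genes, 522 of 10349 in stroma and 344 of 9622 in macrophages were higher with TMM factors. For the other settings here no share of all genes was computed. The fold limit and the added CPM change a count past the fold by construction, and for the other settings the cause was not tested. Ratios that crossed 0 were all of members not past the fold, such as *Hif1an* in the 3 stromal comparisons of libraries and *Epas1*, *Arnt* and *Egln2* for Vehicle over Palo in macrophages. Vehicle over Palo for *Egln3* ranged from 2.89 to 3.58 in stroma and 3.19 to 4.56 in macrophages, and *Car9* over Palo in stroma from 3.08 to 4.12. No paired analysis was possible because the labels give no replicate numbers and each condition has 1 library. Depth limits *Epas1* everywhere and *Car9* outside Vehicle stroma, which rest on 63 to 242 UMIs in stroma and macrophages and on fewer in the smaller splits.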
